A study of Homo sapiens with 12 samples.

Results

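The genes described here encode the cytosolic translation initiation and elongation factors, with their close binding partners and modifying enzymes. They were taken by symbol, as the protein-coding genes whose names begin with EIF1 to EIF6 or with EEF1 or EEF2, leaving out the EIF2AK kinases and EEF2K. The rule found 63 genes among the 54127 gene lines of the count files, and 58 of them passed the count filter, among 14505 genes that passed it in all. It used no measured value.

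Initiation factors bring the small ribosomal subunit, the initiator tRNA and the capped messenger RNA together, so that the start codon is found and the large subunit can join. Elongation factors then deliver each charged tRNA and move the ribosome along the message. In prostate cancer the cap-binding step is best known as the place where the mTOR pathway acts, through the eIF4E-binding proteins. Messages of ribosomal proteins and of several of these factors begin with a 5′ terminal oligopyrimidine (TOP) tract, a run of pyrimidines at the cap through which mTOR signalling controls their translation.

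The study asked how inhibition of PBK, a serine/threonine kinase also called TOPK, changes the transcriptome of prostate cancer cells. C4-2 cells, a line derived from LNCaP and established as a model of castration-resistant disease, were grown in RPMI medium with fetal bovine serum. Control cells received the solvent DMSO and treated cells PBKi, the catalytic PBK inhibitor HI-TOPK-032, at 1 µM for 6 h, and each arm holds 6 RNAseq libraries. The labels give the RNA as coming from flow-sorted cells, with no gate named, and do not say whether samples of an arm were separate cultures, so p-values measure only the spread between these samples, which may be technical.

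Reads on genes ranged from 9663203 to 28029908 per library. DMSO replicate 5 had the fewest reads and was counted in 3 sequencing lanes where every other library had 4. On the principal components of log2 expression, the first component (61.0% of the variance) separated PBKi from DMSO, and the second (9.76%) separated replicates 1 to 3 from replicates 4 to 6, with DMSO replicate 5 farthest out. That library was the lowest DMSO sample for 18 of the 58 translation factor genes and the highest for 15, and no other library was as often at both ends. PBKi replicate 6 was the lowest of its group for 20 and the highest for 6. DMSO replicate 3 was the lowest for 9 and the highest for 19. Results that rest on DMSO replicate 5 are given with and without it. KLK3, KRT8, KRT18, HOXB13, FOLH1 and TMPRSS2 were expressed in all libraries, whereas KRT5, TP63, DCN, CDH5, PTPRC and CD3E, markers of basal, stromal, endothelial and white blood cells, did not exceed 0.312 CPM in any library. COL1A1, another stromal marker, stood at 16.5 to 22.5 CPM.

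All levels are CPM, counts scaled to a common library total, after TMM normalisation, which corrects these totals for composition. They are shares of a library, so a change in the amount of all RNA per cell cannot be told apart from no change. Folds are PBKi over DMSO on the log2 scale. An edgeR adjusted p comes from the quasi-likelihood test of edgeR, adjusted over all 14505 genes by the method of Benjamini and Hochberg, and a gene was called at an adjusted p under 0.05.

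PBKi lowered more translation factor genes than it raised. Of the 58 tested, 18 were downregulated (31.0%, against 21.5% of all genes tested) and 6 were upregulated (10.3%, against 20.1%), and 34 were not called. In either direction 41.7% of all genes were called. The median log2 fold change was -0.07 over the 58 genes, -0.01 over all genes tested and -0.02 over all protein-coding genes tested. The changes ran from -0.50 for EEF1AKMT2 to 0.23 for EIF2B2 among called genes. In 7 genes all PBKi samples lay below all DMSO samples (9.68% of all genes did so) and in 3 genes all lay above (10.5% of all genes). Together the 63 genes took 2.24% to 2.49% of the reads on genes in DMSO and 2.18% to 2.35% in PBKi, ranges that overlapped.

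The split between the directions depended on the scaling and on the samples used. With library totals in place of TMM factors, 12 of the 58 genes were downregulated (20.7%) and 11 upregulated (19.0%), and over all genes the calls moved from 3125 lower and 2921 higher to 2402 lower (16.6%) and 3602 higher (24.8%). Without DMSO replicate 5, 20 translation factor genes were downregulated (34.5%, against 22.2% of all genes) and 10 upregulated (17.2%, against 23.1%). EEF1A2, EIF3C, EIF3H, EIF4E2, EIF4G1, EIF5A2 and EIF6 were then called as well and EIF5A was not. Without PBKi replicate 6, 13 were downregulated (22.4%, against 18.2% of all genes) and 5 upregulated (8.62%, against 18.3%). With a term in the model that set replicates 1 to 3 apart from the rest, 22 were downregulated (37.9%, against 25.5%) and 9 upregulated (15.5%, against 23.1%).

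**Figure D1:**
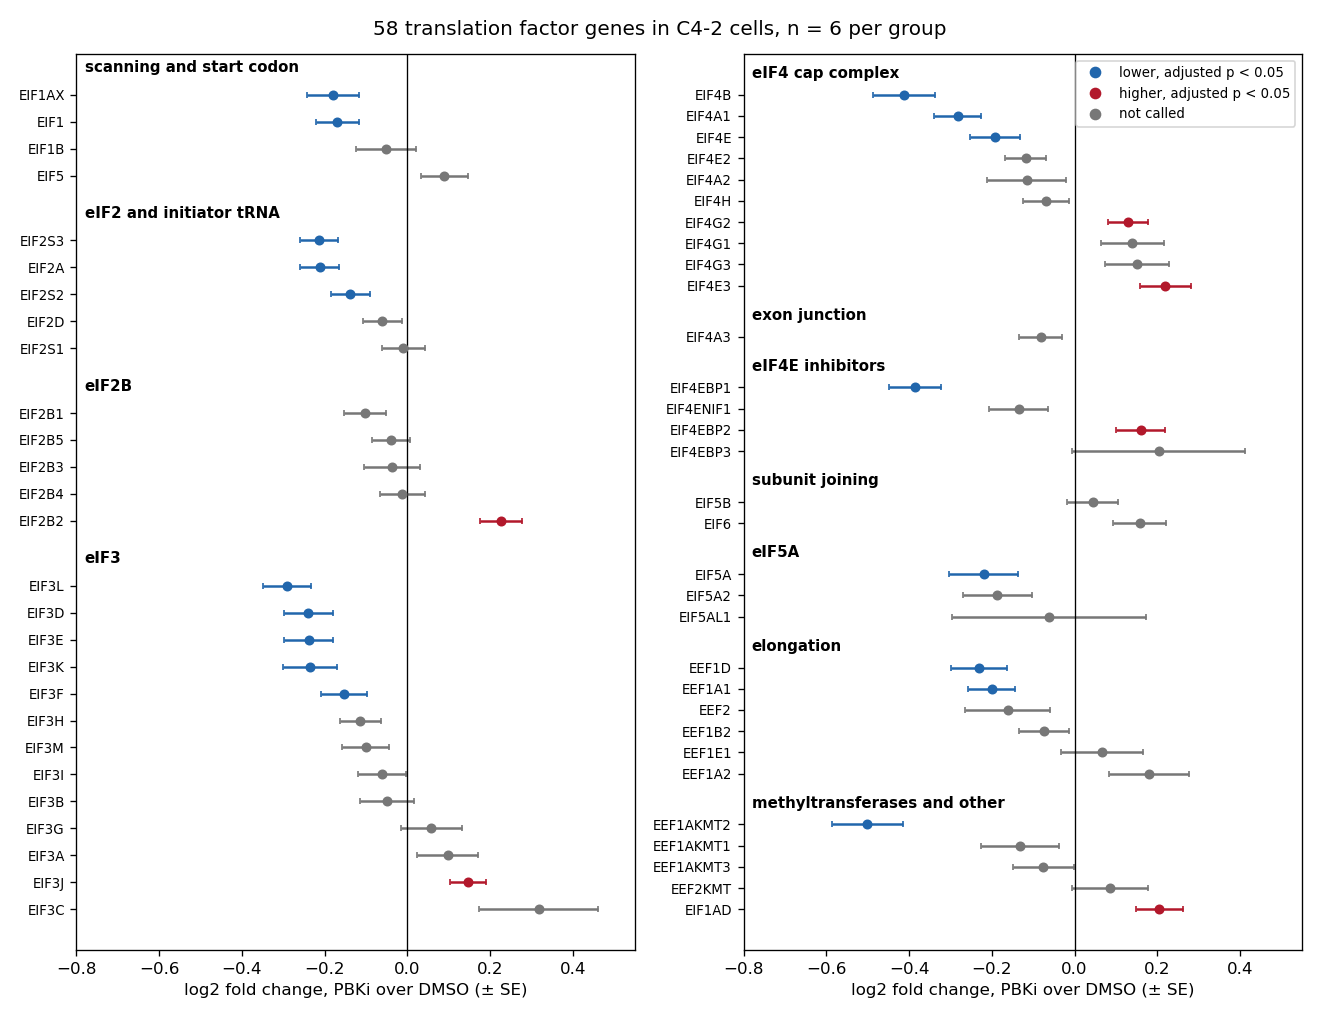
Log2 fold change of PBKi over DMSO (x axis) with its standard error for the 58 tested translation factor genes, grouped by role, with n = 6 samples in each group. Blue points are the 18 genes called lower, red points the 6 called higher and grey points the 34 not called at an adjusted p of 0.05. The lower calls fall in most roles, and the 6 higher calls lie between 0.13 and 0.23.

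Genes of the factors that act at the cap moved both ways, and 3 of 10 tested eIF4 genes fell and 2 rose, shares near those of all genes (21.5% and 20.1%). EIF4B, on chromosome 12 of GRCh37 from 53400066 to 53435999, encodes the cofactor that stimulates the eIF4A helicase. It spanned 682 to 913 CPM in DMSO (median 789) and 522 to 671 in PBKi (median 609). Every PBKi sample was below every DMSO sample, and EIF4B fell by 24.9% (log2 fold change -0.41, SE 0.08, edgeR adjusted p = 0.000301). EIF4A1, the RNA helicase of the cap-binding complex, lies on chromosome 17 from 7476142 to 7482324. Its DMSO samples spanned 1148 to 1376 CPM (median 1255) and its PBKi samples 967 to 1127 (median 1056), again without overlap (log2 fold change -0.28, SE 0.06, edgeR adjusted p = 0.000705). EIF4E, the cap-binding protein itself, spanned 66.0 to 79.5 CPM in DMSO (median 69.6) and 58.2 to 69.1 in PBKi (median 62.9). These groups overlapped, and the fall passed the test (log2 fold change -0.19, SE 0.06, edgeR adjusted p = 0.0156), though not without PBKi replicate 4 or without PBKi replicate 6.

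The eIF4 genes that rose were EIF4E3 and EIF4G2. EIF4E3, an atypical cap-binding relative of EIF4E, went from a median of 26.1 CPM in DMSO (range 24.99 to 29.2) to 30.4 in PBKi (range 27.7 to 34.6), a log2 fold change of 0.22 (SE 0.06, edgeR adjusted p = 0.00892). EIF4G2, also known as DAP5, encodes a scaffold related to eIF4G that lacks the binding site for eIF4E. It went from a median of 1596 CPM (range 1498 to 1750) to 1755 (range 1714 to 1819), with the top DMSO sample, replicate 5, above the lowest PBKi samples (log2 fold change 0.13, SE 0.05, edgeR adjusted p = 0.0427). Its call was lost in 5 of 12 leave-one-out fits (DMSO replicates 1, 2 and 3, PBKi replicates 2 and 3).

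The main scaffold gene EIF4G1 was not called (log2 fold change 0.14, SE 0.08, edgeR adjusted p = 0.151). DMSO replicate 5 stood at 1703 CPM, above the other DMSO samples (1185 to 1373) and above all PBKi samples (1394 to 1545). Without it EIF4G1 was called higher (log2 fold change 0.22, edgeR adjusted p = 0.00307). EIF4G3, a further scaffold of the family, was at 108 to 151 CPM in DMSO and 118 to 151 in PBKi (log2 fold change 0.15, edgeR adjusted p = 0.125). With a term in the model that set replicates 1 to 3 apart from the rest, EIF4G1 and EIF4G3 were called higher (edgeR adjusted p = 0.0438 and 0.0232). EIF4A2, EIF4E2 and EIF4H, respectively a second eIF4A helicase, a cap-binding relative linked to translational repression and a cofactor of the helicase, were not called, with log2 fold changes of -0.12, -0.12 and -0.07. Without DMSO replicate 5, EIF4E2 was called lower (log2 fold change -0.13, edgeR adjusted p = 0.0298).

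The genes of the eIF4E-binding proteins, which hold eIF4E away from eIF4G until mTOR phosphorylates them, moved in opposite directions. EIF4EBP1, on chromosome 8 from 37888052 to 37917883, spanned 157 to 204 CPM in DMSO (median 172) and 124 to 143 in PBKi (median 135). No PBKi sample reached a DMSO sample, and the gene fell by 23.5% (log2 fold change -0.39, SE 0.06, edgeR adjusted p = 9.09e-05). EIF4EBP2 spanned 239.7 to 295 CPM in DMSO (median 261) and 264 to 320 in PBKi (median 295). The groups overlapped and the rise was smaller than the fall of EIF4EBP1 (log2 fold change 0.16, SE 0.06, edgeR adjusted p = 0.0363), and it was lost without DMSO replicate 1, 2 or 3 or PBKi replicate 5 or 6. EIF4EBP3, counted at 13 to 44 reads per library, and EIF4ENIF1, which carries eIF4E into the nucleus, were not called.

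**Figure D2:**
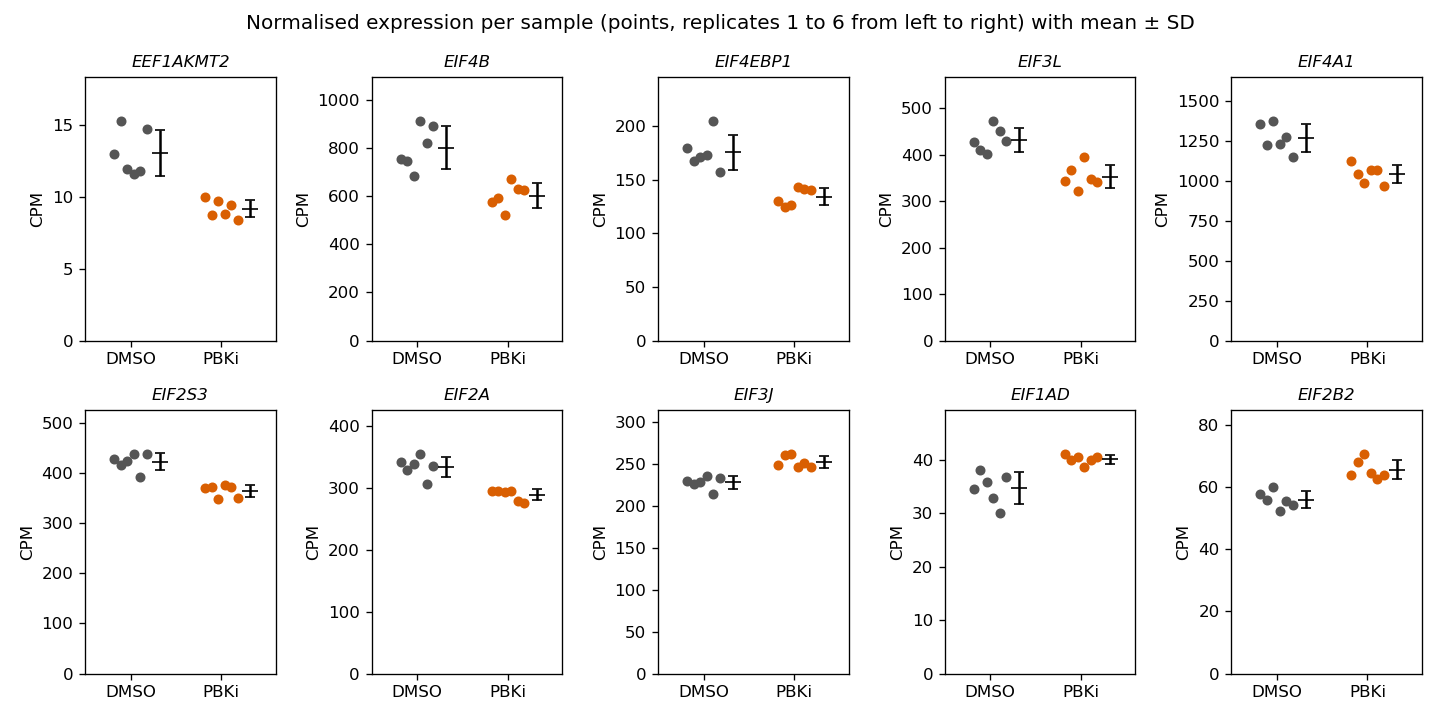
Normalised expression in CPM (y axis, from 0) of the 10 genes in which the groups did not overlap, with replicates 1 to 6 from left to right within DMSO (grey) and PBKi (orange) and bars for the mean ± SD. The 7 genes from EEF1AKMT2 to EIF2A are lower in every PBKi sample and EIF3J, EIF1AD and EIF2B2 are higher in every PBKi sample.

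The eIF3 complex, the largest initiation factor, binds the small subunit and recruits the message. Of its 13 tested genes, 5 were downregulated (EIF3L, EIF3D, EIF3E, EIF3K and EIF3F), 1 was upregulated (EIF3J) and 7 were not called, with a median log2 fold change of -0.10. The shares were 38.5% downregulated (against 21.5% of all genes) and 7.69% upregulated (against 20.1%), in a list of few genes. EIF3L, on chromosome 22 from 38244875 to 38285414, was at 401 to 472 CPM in DMSO (median 428) and at 321 to 395 in PBKi (median 346). The groups did not overlap (log2 fold change -0.29, SE 0.06, edgeR adjusted p = 0.000597). The genes of 3 other subunits fell by similar amounts, with log2 fold changes of -0.24 for EIF3D, -0.24 for EIF3E and -0.24 for EIF3K (edgeR adjusted p = 0.0035, 0.0039 and 0.00838). EIF3K and EIF3L form a pair at the edge of the complex, and EIF3E and EIF3D lie next to each other in it.

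EIF3F fell less (log2 fold change -0.15, SE 0.06, edgeR adjusted p = 0.0348), and its call held in 4 of 12 leave-one-out fits. EIF3J encodes a loosely bound factor that sits near the mRNA entry channel of the small subunit. It was at 214 to 235.4 CPM in DMSO (median 229) and at 246 to 261 in PBKi (median 249.5), a small rise without overlap (log2 fold change 0.15, SE 0.04, edgeR adjusted p = 0.0116). The genes of the core subunits EIF3A, EIF3B, EIF3G and EIF3I were not called, with log2 fold changes between -0.06 and 0.10. EIF3H and EIF3M were at -0.11 and -0.10 and were not called.

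EIF3C was counted at only 22 to 56 reads per library although it encodes a core subunit, and its near-identical copy EIF3CL at 0 or 1 read. HTSeq-count leaves out reads that align to several places, which includes reads shared by both copies, and neither value is used here as the level of the gene. EIF3L overlaps ANKRD54, EIF3J overlaps SPG11 and EIF2A overlaps SERP1 on the annotation. Other called genes with such a protein-coding partner are EEF1A1 (MTO1), EEF1AKMT2 (ENSG00000258539), EEF1D (TIGD5), EIF2S2 (RALY), EIF4E3 (GPR27), EIF4G2 (CTR9) and EIF5A (GPS2). The called genes EIF4A1, EIF4B, EIF3E, EIF1AX, EIF4E, EIF3F and EIF2B2 overlap only annotated genes that are not protein-coding. Whether the reads kept their strand is not given in the sources used here, so reads of such partners could be mixed or uncounted.

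**Figure D3:**
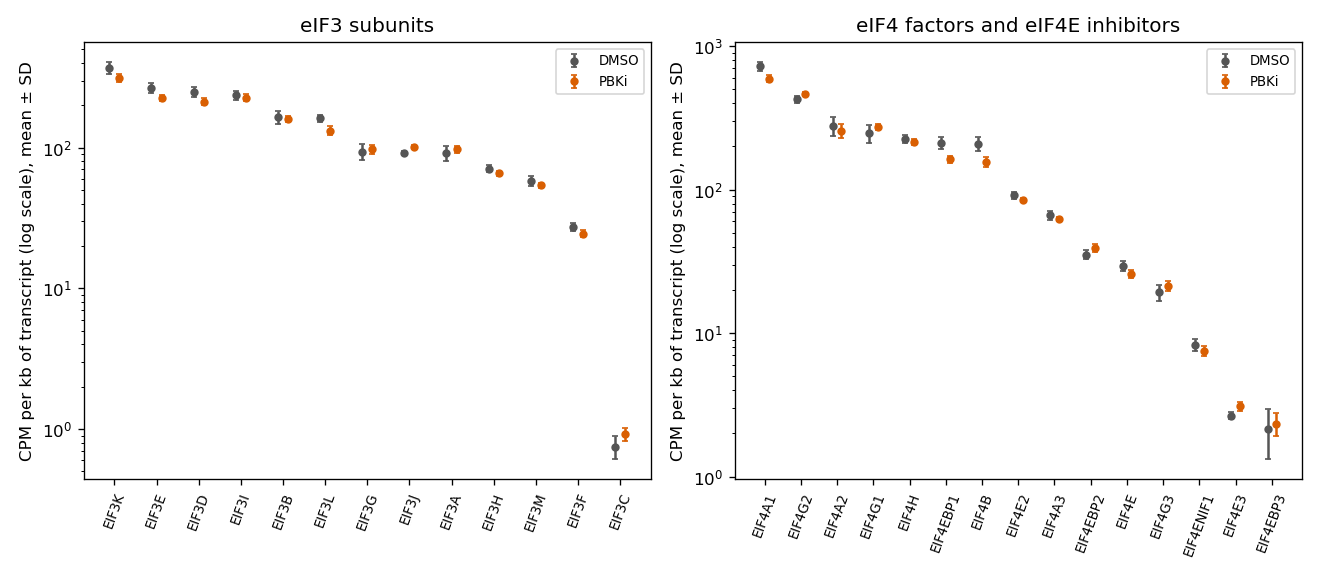
Mean level ± SD in CPM per kilobase of transcript (y axis, log scale) in DMSO (grey) and PBKi (orange), n = 6 each, for the eIF3 subunits (left) and for the eIF4 factors with the eIF4E inhibitors (right), ordered by the DMSO level. EIF3K, EIF3E and EIF3D stand at the top of eIF3 and EIF4A1 (723 in DMSO) at the top of the eIF4 factors. EIF3C is near the floor, but reads shared with its copy EIF3CL were not counted, so its point is not the level of the gene.

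Among the genes of eIF2, the GTPase that carries the initiator tRNA, those of the β and γ subunits fell and that of the α subunit did not change detectably. EIF2S3, the γ subunit, on chromosome X from 24073063 to 24096927, was at 393 to 438 CPM in DMSO (median 426) and at 349 to 376 in PBKi (median 371). The ranges were apart (log2 fold change -0.21, SE 0.05, edgeR adjusted p = 0.00125). EIF2S2, the β subunit, had a log2 fold change of -0.14 (SE 0.05, edgeR adjusted p = 0.0248), and this call was lost in 6 of 12 leave-one-out fits. EIF2S1, the α subunit on which the stress kinases act, was at -0.01 (SE 0.05, edgeR adjusted p = 0.898). EIF2A, a separate factor that can also bring initiator tRNA to the ribosome, was at 306 to 354 CPM in DMSO (median 337) and at 274.8 to 295 in PBKi (median 294), again without overlap (log2 fold change -0.21, SE 0.05, edgeR adjusted p = 0.00164).

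eIF2B recharges eIF2 with GTP, and 1 of its 5 genes was called, where 41.7% of all genes were called in either direction. EIF2B2, the β subunit, on chromosome 14 from 75469624 to 75479069, was at 52.3 to 59.9 CPM in DMSO (median 55.7) and at 62.6 to 70.5 in PBKi (median 64.1). It was the largest rise among all translation factor genes that were called (log2 fold change 0.23, SE 0.05, edgeR adjusted p = 0.00159), and each PBKi sample exceeded each DMSO sample. The other eIF2B genes were between -0.10 and -0.01.

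For start codon selection, EIF1 and EIF1AX fell. EIF1, which keeps the scanning ribosome open until the start codon is met, was at 832 to 960 CPM in DMSO (median 889) and at 766 to 872 in PBKi (median 774). PBKi replicate 4, at 872 CPM, reached into the DMSO range and the other PBKi samples did not exceed 790 CPM (log2 fold change -0.17, SE 0.05, edgeR adjusted p = 0.0144), and the call was lost without DMSO replicate 4, with library totals only, with no low-count filter and in replicates 4 to 6 alone. EIF1AX had a log2 fold change of -0.18 (edgeR adjusted p = 0.0269), a call that held in 5 of 12 leave-one-out fits. EIF5, which makes eIF2 hydrolyse its GTP, EIF1B, the joining factor EIF5B and the anti-association factor EIF6 were not called. EIF6 was close to the threshold (log2 fold change 0.16, SE 0.06, edgeR adjusted p = 0.0573). It was called higher with DESeq2, library totals only or a replicate block, and in 2 of 12 leave-one-out fits (DMSO replicate 5, PBKi replicate 3).

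Elongation factor genes included the highest messages of the set. Per kilobase of transcript, the highest mean levels in DMSO were 1641 CPM for EEF2, the translocase, 723 for EIF4A1, 567 for EEF1A1, which delivers charged tRNA, 425 for EIF4G2 and 380 for EIF1. EEF2 was not called (log2 fold change -0.16, SE 0.10, edgeR adjusted p = 0.220). It was at 4232 to 6894 CPM in DMSO (median 4796) and at 4066 to 5422 in PBKi (median 4546), with DMSO replicate 5 at the top, and without that sample the log2 fold change was -0.06. EEF1A1 was at 1854 to 2208 CPM in DMSO (median 1982) and at 1609 to 1876 in PBKi (median 1721). The ranges overlapped slightly and the fall was called (log2 fold change -0.20, SE 0.06, edgeR adjusted p = 0.00891). EEF1A1 has 44 annotated pseudogenes, and reads that fit several of them would have gone uncounted.

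EEF1D, a subunit of the exchange factor that reloads eEF1A with GTP, fell (log2 fold change -0.23, SE 0.07, edgeR adjusted p = 0.0114), with 139 to 199 CPM in DMSO and 129 to 142 in PBKi. EEF1B2, another subunit, was not called (log2 fold change -0.07). EEF1G, a further subunit, was counted at 1 to 4 reads per library. It is overlapped by another annotated gene, ENSG00000255508, and HTSeq-count does not count a read that lies on both genes. The share of reads lost in this way was not tested.

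EIF5A, the hypusine-containing factor that relieves stalls during elongation, ran from 257 to 395 CPM in DMSO and from 247 to 282 in PBKi. Its call (log2 fold change -0.22, SE 0.08, edgeR adjusted p = 0.0408) rested in part on DMSO replicate 5, the highest sample, and without it the log2 fold change was -0.13 (edgeR adjusted p = 0.0776). The call was also lost without DMSO replicate 1 or 3 or PBKi replicate 2, 3, 5 or 6.

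The largest fall in the whole set was in a modifying enzyme. EEF1AKMT2, a lysine methyltransferase that acts on eEF1A, lies on chromosome 10 from 126436718 to 126480456. It was at 11.6 to 15.3 CPM in DMSO (median 12.5) and at 8.42 to 9.99 in PBKi (median 9.13), with no overlap. The message fell by 29.3% (log2 fold change -0.50, SE 0.09, edgeR adjusted p = 0.000173). It overlaps another annotated gene, ENSG00000258539. The methyltransferase genes EEF1AKMT1, EEF1AKMT3 and EEF2KMT were not called, with log2 fold changes of -0.13, -0.08 and 0.09. EIF1AD, whose product resembles eIF1A and acts in the maturation of the small subunit, was at 30.1 to 38.1 CPM in DMSO (median 35.3) and at 38.8 to 41.1 in PBKi (median 40.2), higher in every PBKi sample (log2 fold change 0.21, SE 0.06, edgeR adjusted p = 0.00838). EIF1AY, EIF2S3B and EIF4E1B did not pass the count filter, nor did EEF1G and EIF3CL.

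Because relatives within a family often do different work, the balance between 10 pairs of paralogues was tested in each sample as the difference of their log2 CPM, with a two-sided exact permutation test of the group means and adjustment over the 10 pairs. The smallest p that this test can give is 0.00216. The largest shift was between EIF4EBP1 and EIF4EBP2. Their log2 ratio ran from -0.91 to -0.42 in DMSO and from -1.21 to -1.02 in PBKi, a difference of -0.54 (exact permutation adjusted p = 0.0108), so that EIF4EBP2 gained 1.46-fold on EIF4EBP1 and no samples of the groups overlapped.

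EIF4A1 lost 1.15-fold against EIF4A3, its relative in the exon junction complex, with a log2 ratio of 2.87 to 3.03 in DMSO and 2.65 to 2.78 in PBKi (difference -0.20, exact permutation adjusted p = 0.0108). EIF4E lost 1.32-fold against EIF4E3 (difference -0.40, exact permutation adjusted p = 0.0144), with a slight overlap of the groups. EEF1A1 lost 1.32-fold against EEF1A2, the isoform normally found in muscle and neurons (difference -0.40, exact permutation adjusted p = 0.0379). EEF1A2 was well expressed in these cells, with a DMSO mean of 614 CPM against 1991 for EEF1A1. Per kilobase these means were 346 and 567, on canonical transcripts of 1773 and 3512 bases. Reads of EEF1A1 shared with its pseudogenes would have gone uncounted. EEF1A2 was not called on its own (log2 fold change 0.18, edgeR adjusted p = 0.141). Without DMSO replicate 5 it was called higher (log2 fold change 0.29, edgeR adjusted p = 0.00228). In that pair DMSO replicate 5 lay at 1.19 and the other DMSO samples at 1.73 to 1.90, and without it the difference was -0.50 (exact permutation adjusted p = 0.00722). The call of this pair was lost without any other single DMSO sample (exact permutation adjusted p = 0.0649). The other 6 pairs did not pass the test, with differences from -0.18 for EIF4A1 against EIF4A2 to 0.02 for EIF4G1 against EIF4G2 and adjusted p from 0.190 to 0.963 in the exact permutation test.

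**Figure D4:**
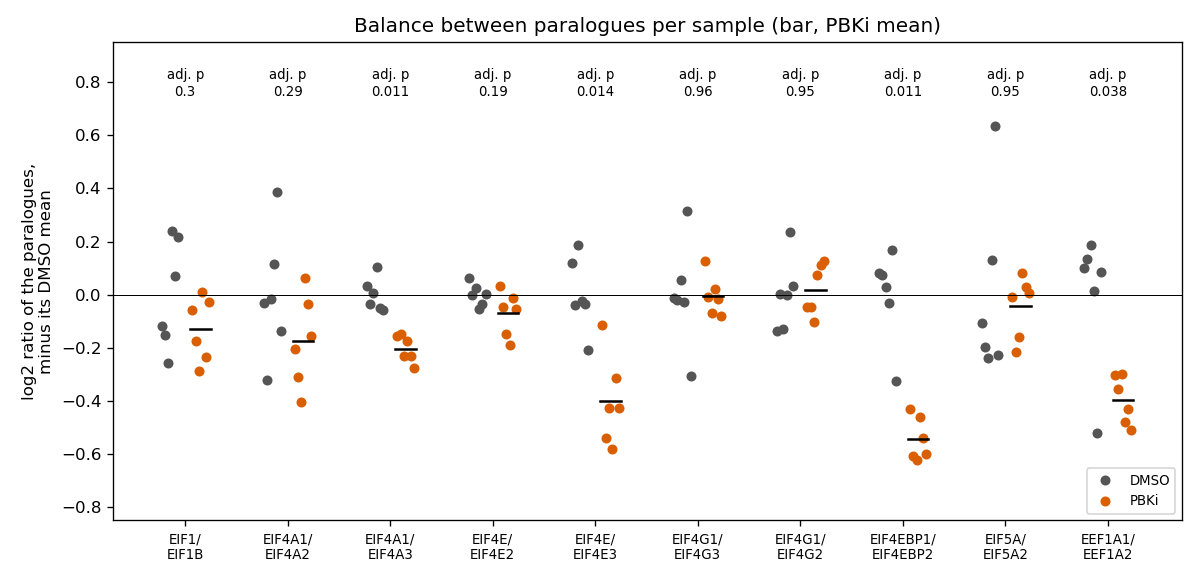
Log2 ratio of each of 10 paralogue pairs per sample, minus its DMSO mean (y axis), for 6 DMSO (grey) and 6 PBKi (orange) samples, with a bar at the PBKi mean and the adjusted p of the exact permutation test above. The PBKi samples of EIF4EBP1/EIF4EBP2 (mean difference -0.54) and EIF4A1/EIF4A3 (-0.20) lie below all DMSO samples, whereas 1 DMSO sample of EEF1A1/EEF1A2, replicate 5, lies below all PBKi samples.

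Of 13 factor genes known to carry a TOP tract, 12 were tested. Of these 12, 7 were downregulated (EIF4B, EIF3L, EIF3E, EEF1D, EIF2S3, EEF1A1 and EIF3F) and 0 upregulated, with a median log2 fold change of -0.18. The downregulated share was 58.3%, whereas 21.5% of all genes tested were downregulated and 20.1% upregulated. The median was -0.06 in the 46 other tested genes, where 11 were downregulated (23.9%) and 6 upregulated (13.0%). Among cytosolic ribosomal protein genes, the best-known TOP messages, 75 of 82 tested were downregulated (91.5%) and 1 upregulated (1.22%), with a median of -0.33. The TOP list was chosen with earlier results of these data known. These counts are descriptions, and the difference between the lists was not tested.

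The start sites were read from the promoter sequences of RefSeq (GRCh38.p14), in which 50 of the 63 genes were matched, 46 of them tested. The windows printed here are a choice from the matched genes, shown because the counts of downregulated and upregulated genes are given by a pyrimidine run at the start. Each has 20 bases before the annotated start and 20 from it on, and capitals mark a C at the start base with the unbroken run of C or T that follows it. The first 7 genes were downregulated and EEF2 was not called. EIF2B2, EIF4EBP2 and EIF4G2 were upregulated and hold no such run at the start base, but EIF4EBP2 and EIF4G2 hold one shortly after it. Not printed are EIF2D, EIF3M and EIF4A2, which hold the run at the start base and were not called. Also not printed are the downregulated genes without it there (EEF1AKMT2, EIF1, EIF1AX, EIF4A1, EIF4E and EIF5A).
EIF4B, chr12:53006436-53006475, plus strand: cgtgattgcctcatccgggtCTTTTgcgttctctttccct
EIF3K, chr19:38619168-38619207, plus strand: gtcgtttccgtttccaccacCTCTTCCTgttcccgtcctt
EIF3D, chr22:36529147-36529186, minus strand: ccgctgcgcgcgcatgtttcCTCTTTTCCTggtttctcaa
EIF3F, chr11:7987317-7987356, plus strand: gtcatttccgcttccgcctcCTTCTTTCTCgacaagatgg
EIF2S3, chrX:24054936-24054975, plus strand: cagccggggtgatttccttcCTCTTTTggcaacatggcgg
EIF2A, chr3:150546767-150546806, plus strand: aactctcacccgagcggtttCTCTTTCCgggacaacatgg
EEF1A1, chr6:73521013-73521052, minus strand: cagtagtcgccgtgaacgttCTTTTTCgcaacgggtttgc
EEF2, chr19:3985444-3985483, minus strand: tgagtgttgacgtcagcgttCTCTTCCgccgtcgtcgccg
EIF2B2, chr14:75002901-75002940, plus strand: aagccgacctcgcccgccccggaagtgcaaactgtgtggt
EIF4EBP2, chr10:70404125-70404164, plus strand: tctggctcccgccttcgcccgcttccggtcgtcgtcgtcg
EIF4G2, chr11:10807977-10808016, minus strand: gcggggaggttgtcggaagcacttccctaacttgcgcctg

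A C at the start base followed by at least 4 C or T was present in 11 of the 46 tested genes (23.9%), against 4.04% of 27305 promoters. These 27305 are 1 promoter per symbol, whether or not the gene was expressed in these cells. The share among expressed genes alone was not computed. The downregulated genes with a matched promoter held it in 7 of 13 cases, the upregulated in 0 of 6 and those not called in 4 of 27 (EEF2, EIF2D, EIF3M and EIF4A2). All 11 genes with the run had a log2 fold change below 0, with a median of -0.20. The median was -0.04 in the 35 without it, of which 6 were downregulated and 6 upregulated. Of all 14505 genes tested, 7521 had a log2 fold change below 0, 21.5% were downregulated and 20.1% upregulated. EEF1A1, EEF2, EIF2S3, EIF3F and EIF4B hold the run and are on the TOP list too, so the sets overlap. EEF1B2 and EEF1G, also on that list, hold no run at the start. EEF1D, EIF3A, EIF3E, EIF3G, EIF3H and EIF3L, on the list as well, had no matched promoter. The start sites used in these cells were not mapped. The run was also allowed to begin anywhere from 5 bases before to 10 bases after the annotated start, a search added after seeing the data. It was then found in 8 of the 13 downregulated genes, 3 of the 6 upregulated (EIF3J, EIF4EBP2 and EIF4G2) and 21.1% of all promoters.

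In the 250 bases before to 50 after the start, searched on both strands, the E-box CACGTG was found in 23.9% of the tested genes and 7.43% of all promoters. The ETS core CCGGAA was found in 39.1% and 17.6%. All promoters again include those of genes not expressed in these cells, so the sets compared are unlike. The E-box genes were downregulated in 4 cases (EIF4B, EIF4E, EIF3F and EIF3K), upregulated in 0 and not called in 7. Over all genes tested, 21.5% were downregulated and 20.1% upregulated. The NF-Y core CCAAT was about as frequent as in all promoters (37.0% against 35.7%), and was held by 8 of 13 downregulated and 1 of 6 upregulated genes. The CCGGAA core was held by 4 of the 13 downregulated and 3 of the 6 upregulated genes.

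Genes that work beside these factors were followed in 6 lists of 36 tested genes, of which 9 fell and 6 rose, shares near those of all genes (21.5% and 20.1%). Of 5 genes of poly(A)-binding proteins and their partners, 3 fell, PAIP2 (log2 fold change -0.39), PABPC1 (-0.20) and PABPC4 (-0.17). Of 8 genes of termination, recycling and reinitiation, 0 fell and 3 rose without overlap of the groups, namely PELO (0.38) and GSPT2 (0.45), which act on stalled ribosomes and in termination, and the release factor ETF1 (0.19). Among the regulators of eIF4, the S6 kinase gene RPS6KB1 (-0.29), the eIF4A inhibitor PDCD4 (-0.31) and the eIF4E kinase MKNK2 (-0.23) fell, whereas MTOR and RPTOR were not called.

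PPP1R15A, which directs a phosphatase to eIF2α during stress, rose from 6.40 ± 0.914 CPM in DMSO to 14.5 ± 3.02 in PBKi (mean ± SD, n = 6 each; log2 fold change 1.20, SE 0.13, edgeR adjusted p = 1.45e-06), and PPP1R15B rose by 0.14. The eIF2α kinase genes were not called, and EEF2K, the kinase that inactivates eEF2, fell (-0.29). The enzymes that place hypusine on eIF5A moved apart, with DHPS at -0.29 and DOHH at 0.37, both called.

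In replicates 1 to 3 alone 16 of 59 translation factor genes were called lower (27.1%, against 21.3% of all genes) and 12 higher (20.3%, against 22.6%). In replicates 4 to 6 alone 5 of 58 were called lower (8.62%, against 8.48%) and 1 higher (1.72%, against 9.08%), with n = 3 per group in each set. The genes called in both sets were EEF1AKMT2 (log2 fold changes -0.46 and -0.52), EIF4B (-0.36 and -0.45), EIF4EBP1 (-0.44 and -0.33), EIF3L (-0.25 and -0.32), EIF3D (-0.17 and -0.29) and EIF2B2 (0.23 and 0.24). EIF4A1 was at -0.32 and -0.23 and EIF2S3 at -0.21 in both, EIF2A at -0.18 and -0.23, EEF1A1 at -0.16 and -0.23, EIF3J at 0.18 and 0.12 and EIF1AD at 0.18 and 0.25, with the same sign in each set.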

How the data were processed

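The authors aligned single-end reads from TruSeq libraries to GRCh37 with TopHat 2.0.4 and counted reads per gene with HTSeq 0.5.3p9 (versions from the submitters' processing notes). The deposited values are raw counts per gene in 47 lane files, without normalisation. Here lanes were summed per library, since the spread between lanes of the same library was that of sampling (chi-square per degree of freedom 0.993 to 1.02), and lines for unassigned reads were left out (reads in no gene were 5.74% to 9.30% of the total). A gene entered the test with 10 or more counts in 6 or more samples. The test was run with edgeR 4.0.16 in R 4.3.3 (TMM, quasi-likelihood, no covariate). The procedure was tested on simulated data. Ensembl identifiers were paired with symbols for 47098 of 54127 lines, and gene coordinates are from GENCODE 44 mapped to GRCh37, a later annotation than that of the counts. Levels per kilobase use the canonical transcript. For paralogue ratios the prior count of log2 CPM was 2.

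Genes given with values in full were those of the paralogue pairs, the 5 highest per kilobase in DMSO, and, at an adjusted p under 0.05, no overlap and a log2 CPM averaging 3 or more, the largest rises and falls. EIF3D, EIF3E, EIF3K, EIF3F, EEF1D, EIF2S2, EIF1AX and other genes given with a fold were named as members of their role. The members and the lists, the TOP list included, were chosen with earlier results of these data known. Alternatives were other scalings, count filters, DESeq2 1.42.0, a replicate block, lanes 6 to 8 only, a covariate for and fits within replicates 1 to 3 and 4 to 6, and leaving out each sample. Depth limits the precision of genes with few counts, such as EIF4EBP3 and EIF3C, most. Some marker genes are not reported here.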

Additional observations from a re-analysis of the deposited data

Results flagged for a closer look

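In 4 of 72 groups of 6 values examined (5.56%, where chance gives about 1 in 20), a single sample lay far from the rest of its group. EIF1 was at 872 CPM in PBKi replicate 4 and at 766 to 790 in the other PBKi samples. EIF4E2 was at 76.2 CPM in PBKi replicate 6 and at 82.0 to 84.6 in the others. EIF4G1 was at 1703 CPM in DMSO replicate 5 and at 1185 to 1373 in the others. The log2 ratio of EEF1A1 to EEF1A2 was 1.19 in DMSO replicate 5 and 1.73 to 1.90 in the others. The last 2 come from the library with the fewest reads, and the part of depth in them was not tested.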

How the results depend on the processing

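The counts of 6 higher and 18 lower genes moved most in the following settings. The count of higher genes was 11 with library totals only, 3 with no low-count filter, 12 in replicates 1 to 3 and 1 in replicates 4 to 6, and the count of lower genes was 5 in replicates 4 to 6. Leaving out each sample gave 4 to 10 higher and 13 to 20 lower genes, with 10 higher without DMSO replicate 5. The median log2 fold change was -0.028 with library totals only, where the median over all genes was 0.035. In the main fit these medians were -0.075 and -0.012. DESeq2 gave 7 higher and 20 lower genes, with all 24 genes of the main calls among them. Of these 24, 16 were called in all 12 leave-one-out fits, and none of the 24 changed sign in any setting. Genes and ratios that were not called did, with a log2 fold change of 0.098 for EIF1B in replicates 4 to 6 and a ratio of 0.0048 for EIF4G1 against EIF4G3 in lanes 6 to 8. Leaving out each sample gave -0.066 to 0.058 for that ratio, -0.0087 to 0.066 for EIF4G1 against EIF4G2 and -0.091 to 0.084 for EIF5A against EIF5A2. The cause of these shifts was not tested.

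With the replicate number as a block, 10 genes were higher and 21 lower, and all 24 calls were among them. The correlation of same-numbered deviations from the group means was 0.0887 for replicate 5 and 0.108 to 0.299 in the others. Of the 6 numbers, 4 matched best with their own. These values do not settle whether same-numbered samples belong together, and the main test did not pair them. For the paralogue ratios, the block was a permutation of the signs of same-numbered differences, whose smallest exact p is 0.0312. The differences of EIF4EBP1 against EIF4EBP2 (-0.54), EIF4A1 against EIF4A3 (-0.20), EIF4E against EIF4E3 (-0.40) and EEF1A1 against EEF1A2 (-0.40) then had an adjusted p of 0.104 in the exact permutation test. All of these except EEF1A1 against EEF1A2 were at the smallest exact p before adjustment. The adjusted block test could therefore hardly pass, and it does not decide these differences. Leaving out each sample gave -0.50 to -0.36 for EEF1A1 against EEF1A2, whose adjusted p rose to 0.0649 (exact permutation test) without DMSO replicate 1, 2, 3, 4 or 6, and -0.091 to -0.047 for EIF4E against EIF4E2, which passed the test only without PBKi replicate 1 (-0.091, exact permutation adjusted p = 0.0390).

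The run of C or T near the start, a search added after seeing the data, was in 61.5% of lower and 50% of higher genes, against 53.8% and 0% at the start itself.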
